A study of Mus musculus with 24 samples.

Results

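The 45 genes described here are those of hepatic stellate cells, fibroblasts and the extracellular matrix that these cells make: fibrillar and other collagens, collagen crosslinkers, elastic fibre genes, proteoglycans and glycoproteins, matrix proteases and their inhibitors, contractile and filament genes, growth factors with their receptors, and markers of quiescent stellate cells. They were chosen by name, and a probe was assigned to a member when the array's gene name, or the current symbol of the probe's accession, was that of the member. Of the 45 members, 44 were measured among 19287 genes tested, and Col6a3 was not analysed here. The brightest probe of each gene stood for it. Levels are given as log2 of the deposited processed signal relative to the array's own 75th percentile, so that 0 means a signal equal to that percentile, and they are comparable between arrays for one probe but not between probes.

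The study hybridised mouse RNA to single-colour arrays, 4 arrays in each of 6 groups. The dKO mice lacked Foxa1 and Foxa2, which encode forkhead transcription factors of the liver, and were set against wild-type (WT) mice. The sources used here give neither the strain nor the cells that carried the deletion. The groups were DEN-treated dKO males, DEN-treated WT males, DEN-treated dKO females, DEN-treated WT females, untreated dKO females and untreated WT females, and there were no untreated males. In the carcinogenesis protocol, which the labels attach to every sample, mice received the carcinogen diethylnitrosamine (DEN) at 20 mg/kg when 14 to 15 days old and then the promoter TCPOBOP at 3 mg/kg in 8 injections given 2 weeks apart. The tissue label reads liver tumour for all 24 samples, the untreated ones included, the extraction protocol mentions both liver samples and sorted cells, and age at collection is not given. Nothing states that the 4 arrays of a group came from separate animals, so each p-value reflects only how far these arrays differ, which may be technical.

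Hepatic stellate cells lie in the space of Disse between hepatocytes and sinusoidal endothelium and store vitamin A in healthy liver. On injury they and portal fibroblasts turn into matrix-secreting myofibroblasts, under the influence of transforming growth factor beta and platelet-derived growth factor. The collagen they lay down is crosslinked by lysyl oxidases, bound to small proteoglycans and elastic fibres, and turned over by matrix metalloproteinases, which are held in check by the tissue inhibitors of metalloproteinases.

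The targeted genes matched the labels on every array. Foxa1 was well above background on 0 of the 12 dKO arrays, and its log2 level was -3.36 to -2.11 on the WT arrays. Foxa2 lay at -7.12 to -1.93 on the dKO arrays, against 3.55 to 4.92 on the WT arrays. The share of spots well above background ranged from 50.4% to 68.4% over the 24 arrays, and 0 spots were saturated. The treated dKO females stood apart in several array measures: their mean share of spots above background was 67.2%, against 59.5% to 62.1% in the other groups, and the slope of their spike-in controls was 0.923 to 0.985, against 0.955 to 1.03 in the others. Within that group, the hepatocyte marker list (9 genes measured) had a mean log2 level of 5.20 on replicate 2, against 6.61 to 7.28 on the other 3 arrays. All 4 treated dKO female arrays also lay at position 4 of their slides and all 4 treated WT male arrays at position 1, so that for these groups position and group cannot be told apart. In bulk tissue, more cells of a type and more RNA per cell cannot be told apart either.

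Across the 3 comparisons of dKO with WT, most members were higher in dKO. Of the 44 members, 14 rose and 1 fell in untreated females, where 9.75% of all genes tested were called, 5.16% higher and 4.59% lower. In treated females 35 rose and 1 fell, against 29.7% of all genes called, 13.5% higher and 16.3% lower. In treated males 21 rose and 2 fell, against 25.3% of all genes called, 14.5% higher and 10.8% lower. The median log2 fold change of the members was 0.58 in females without treatment, 1.26 in treated females and 0.78 in treated males, beside -0.04, -0.07 and 0.05 over all genes. The 4 dKO arrays lay all above or all below the 4 WT arrays for 24, 32 and 23 of the 44 members, against 22.6%, 21.5% and 28.6% of all genes. Calls are adjusted p under 0.05 (limma, Benjamini-Hochberg over all genes tested), and the plot of fold changes by member shows all of them. Leaving out each array of the compared groups in turn, 7 of the 15 calls in untreated females, 32 of the 36 in treated females and 16 of the 23 in treated males held every time. Without dKO replicate 3 or 4, 7 members were called in untreated females. With array position as a covariate 6, 0 and 1 members were called in the 3 comparisons; the median log2 fold change in treated females was then 1.27, and its median SE 0.661, against 0.282 without the covariate. Within the slides that hold both genotypes, the members' median was 0.33 and 1.08 in untreated females, 1.57 and 1.51 in treated females, and 0.95, 1.45 and 0.16 in treated males.

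**Figure D1:**
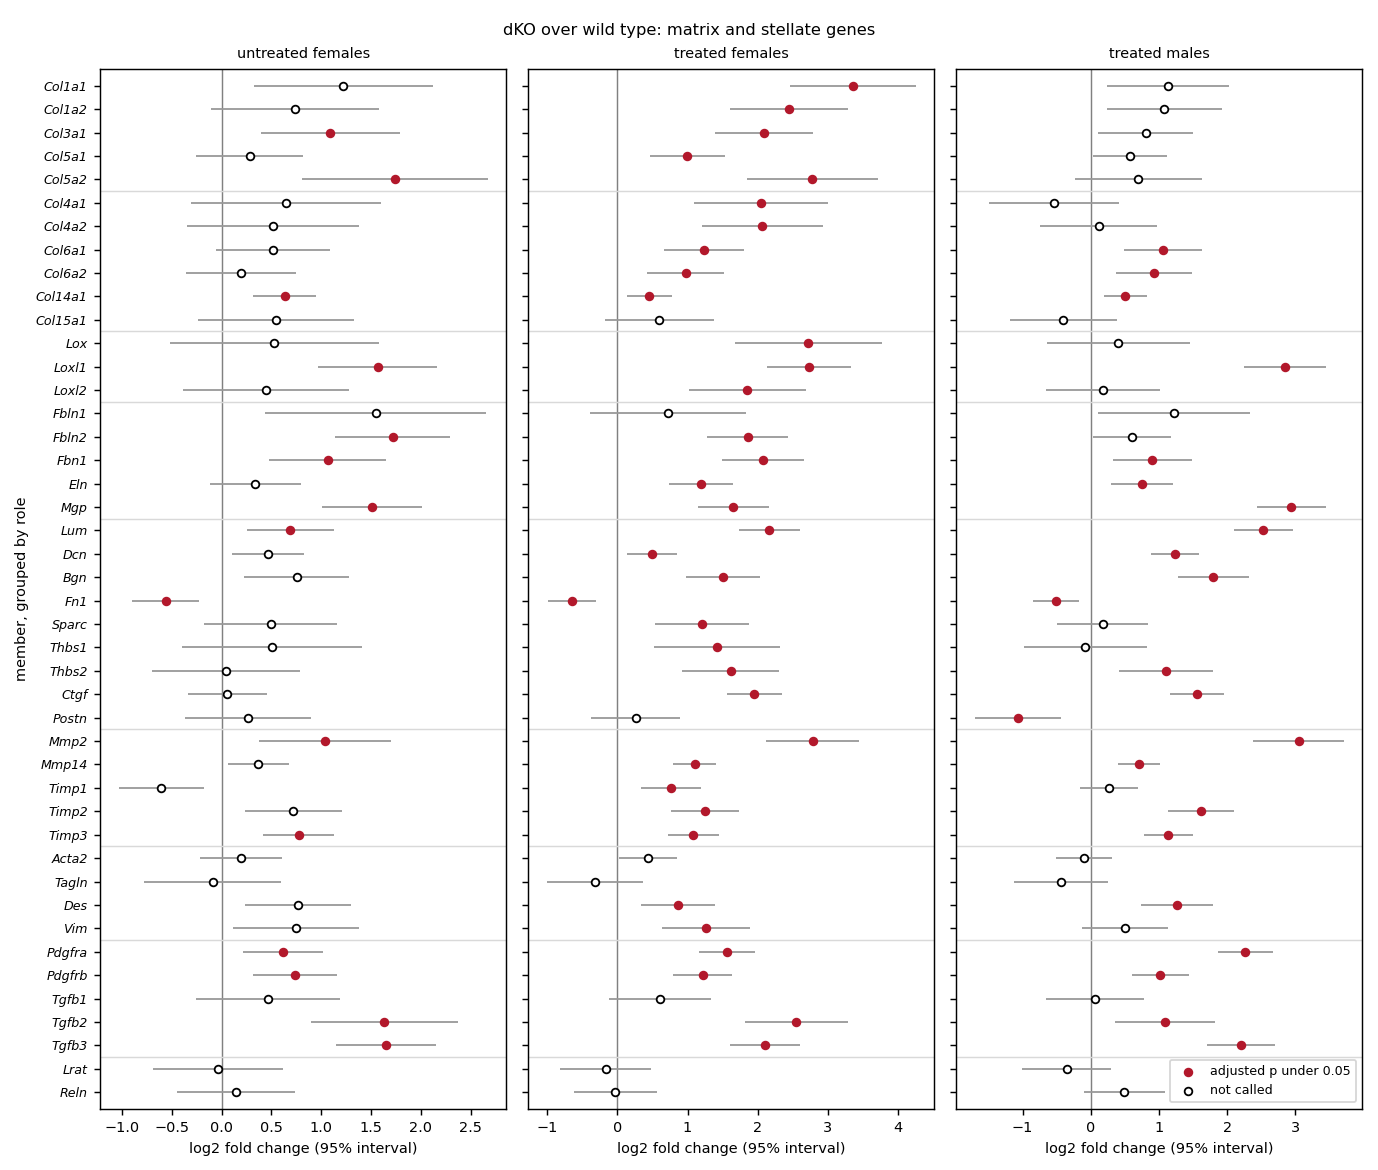
Log2 fold change of dKO over WT (points, with 95% intervals as lines) for each of the 44 members, from top to bottom by role, in untreated, treated female and treated male mice; filled points passed an adjusted p of 0.05 (limma). Most points lie right of 0 in each panel, 35 members are filled on the right side in treated females, and Fn1 is filled on the left in all 3 panels. For Lox in treated females the WT arrays were not above background, so that its point is a fitted value.

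Sorted by how many of the 3 genotype comparisons called them, 11 members rose in all 3: Col14a1, Loxl1, Fbn1, Mgp, Lum, Mmp2, Timp3, Pdgfra, Pdgfrb, Tgfb2 and Tgfb3. Of these 11, 4 (Loxl1, Mgp, Timp3 and Tgfb3) kept all 3 calls whichever single array was left out. A further 13 rose in 2 comparisons and 11 in 1. Fn1 fell in all 3, Postn fell in treated males alone, and 7 members were called in none (Col15a1, Fbln1, Acta2, Tagln, Tgfb1, Lrat and Reln). The 3 comparisons share no arrays. The authors' deposited table gave the same direction as the values here for each called member, 15 of 15, 36 of 36 and 23 of 23. That table comes from the same arrays and was read for the same probes, so the match is no independent support.

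The fibrillar collagens form the load-bearing fibres of scar tissue, types I and III as the bulk and type V as the minor chain that sets fibril growth. All 5 measured chains rose in treated dKO females, and 2 (Col3a1 and Col5a2) rose in untreated dKO females. Both calls in untreated females were lost in some omissions of 1 array. In treated males 0 were called. Even so, all 5 differences were positive in treated males (median 0.81). Genotypes did not overlap for 5 chains in untreated females and 3 in treated males. Each SE came from a single spread estimate shared by all 6 groups. For Col1a1 the SD within a group was 0.15 (treated dKO males) at the lowest and 1.12 (treated dKO females) at the highest. A missing call here therefore does not show that a difference was absent. Col1a1 (probe at chr11:94813075-94813134, mm9, plus strand) had log2 levels of 2.90, 5.13, 2.78 and 4.18 in treated dKO females, against -0.05, 0.41, 0.84 and 0.35 in treated WT females. The lowest dKO array was above the highest WT array by more than the whole range of the WT arrays, and replicates 2 and 4 were the high ones among the dKO. The log2 fold change was 3.36 ± 0.43 (SE; adjusted p = 1.64e-05, limma). In untreated females Col1a1 was 0.55, 0.27, 1.34 and 0.91 in dKO and -0.47, -0.70, -0.15 and -0.49 in WT, without overlap, yet the difference of 1.22 was not called (adjusted p = 0.0791, limma; 95% interval 0.32 to 2.12). Treated males had 2.89, 2.64, 2.99 and 2.80 in dKO, against 2.04, 2.36, 0.41 and 1.97 in WT. Those groups did not overlap either, WT replicate 3 lay far below its group, and the difference of 1.13 was not called (adjusted p = 0.06, limma; 95% interval 0.23 to 2.03). Treated dKO males sat near the 2 lower treated dKO females in Col1a1.

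Col1a2, the partner chain of type I collagen, differed by 2.45 ± 0.40 in treated females (adjusted p = 0.000201, limma), by 0.74 in untreated females (95% interval -0.11 to 1.58) and by 1.08 in treated males (95% interval 0.24 to 1.92). Only the value in treated females passed the test. Col3a1 and Col5a2 are neighbours on chromosome 1, with probes 28.0 kb apart. Col3a1 rose by 1.09 ± 0.33 in untreated and 2.09 ± 0.33 in treated dKO females (adjusted p = 0.0432 and 0.000147, limma). Col5a2 rose by 1.74 ± 0.45 and 2.78 ± 0.45 (adjusted p = 0.0165 and 0.000156, limma), and its difference in treated males was 0.69, not called (95% interval -0.24 to 1.62). Col5a1 rose in treated females, by 1.0 ± 0.26 (adjusted p = 0.00706, limma). In untreated females its brightest probe gave 0.28, not called, and its other probe -0.32.

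Among the other collagens, types IV and XV belong to basement membranes, type VI forms beaded filaments around cells and type XIV decorates fibrils. Col4a1 and Col4a2 are transcribed in opposite directions from starts 21 bases apart on chromosome 8 (GRCm38.p6, RefSeq), and their probes gave much the same pattern. Col4a1 had levels of 0.65, 2.96, -0.20 and 1.98 in treated dKO females, against -0.94, -0.80, -0.34 and -0.73 in treated WT females. The groups did not overlap, but the dKO arrays were spread over more than 3 log2 units, the widest spread of the 44 members in that group (SD 1.40). Col4a1 and Col4a2 rose by 2.05 ± 0.46 and 2.06 ± 0.41 in treated females (adjusted p = 0.00259 and 0.00108, limma). In treated males neither was called, at -0.53 (95% interval -1.49 to 0.42) and 0.12 (95% interval -0.75 to 0.98). Without treated dKO female replicates 2 and 4, the arrays with the lowest spike-in slopes of all (0.923 and 0.946), Col4a1 was no longer called in treated females (0.93, adjusted p = 0.0938, limma).

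Both measured type VI chains rose in treated dKO mice of either sex. Col6a1 rose by 1.24 ± 0.27 in treated females and 1.06 ± 0.27 in treated males (adjusted p = 0.00243 and 0.00697, limma), and Col6a2 by 0.97 ± 0.26 and 0.93 ± 0.26 (adjusted p = 0.00954 and 0.0136, limma). Their probes lie 112.9 kb apart on chromosome 10. Col14a1 rose in all 3 comparisons by a small amount, 0.63, 0.46 and 0.50 in untreated, treated female and treated male mice (adjusted p = 0.00991, 0.0278 and 0.0181, limma), and the calls in treated mice were lost when single arrays were left out. Col15a1 passed the test in no genotype comparison, at 0.54, 0.60 and -0.40.

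The crosslinkers are lysyl oxidases, which oxidise lysines of collagen and elastin. Loxl1, the member best known for elastic fibres (probe at chr9:58138570-58138629, mm9, minus strand), had among the clearest differences of the list. In treated females its levels were 0.03, 0.01, 0.08 and -0.12 in dKO, against -3.37, -2.30, -2.35 and -2.93 in WT. Treated males gave 0.08, -0.21, 0.18 and 0.10 in dKO, against -2.70, -2.13, -3.67 and -2.75 in WT, and untreated females gave -2.0, -2.22, -1.06 and -1.54 in dKO, against -3.16, -3.68, -2.91 and -3.33 in WT. No dKO array overlapped its WT group, and the 8 treated dKO arrays of both sexes lay within a narrow band. The log2 fold changes were 1.57 ± 0.29 in females without treatment, 2.73 ± 0.29 in treated females and 2.85 ± 0.29 in treated males (adjusted p = 0.00133, 1.84e-06 and 5.78e-07, limma).

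Lox itself was above background on 5 of 24 arrays, 4 of them treated dKO females, at -4.70, -3.34, -5.81 and -4.10. It was not well above background on any treated WT female array, and was at least 1.57-fold higher in the treated dKO females (adjusted p = 0.000552, limma). A gene was kept when above background on 4 or more of the 24 arrays, and Lox was kept only through the treated dKO females. Its calls in every comparison with that group are counted here, but they are not support for a difference. With normexp background correction the Lox difference was -0.13 and not called, so that its direction rests on the background treatment. Such a bound sets the mean of the bright group against the lowest signal that counted as well above background, or the probe's own signal where that was higher. Loxl2, which crosslinks collagen IV among others, rose by 1.85 ± 0.40 in treated females (adjusted p = 0.002, limma), with 0.45 in untreated females and 0.18 in treated males not called. Without the pair of treated dKO female arrays of lowest spike-in slope, the Loxl2 difference in treated females was 0.89 (adjusted p = 0.0558, limma).

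Elastic fibres consist of elastin on a fibrillin scaffold with fibulins, and Mgp encodes matrix Gla protein, an inhibitor of calcification bound to that matrix. Of the 5 members in this role, 3 rose in untreated dKO females, 4 in treated dKO females and 3 in treated dKO males. Mgp levels (probe at chr6:136821125-136821184, mm9, minus strand) in treated males were 1.20, 0.96, 1.05 and 1.12 in dKO, against -2.16, -1.40, -2.09 and -1.77 in WT. The corresponding treated female values were 0.62, 0.25, 1.16 and 0.62 in dKO, against -1.67, -1.31, -0.10 and -0.86 in WT, and untreated females had 0.14, 0.14, 0.27 and 0.20 in dKO, against -1.37, -1.16, -1.42 and -1.34 in WT. The groups were apart in each setting, most widely in males. Mgp rose by 1.51 ± 0.24, 1.65 ± 0.24 and 2.94 ± 0.24 in untreated, treated female and treated male mice (adjusted p = 0.000364, 6.31e-05 and 5.06e-08, limma).

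Fbn1, which encodes fibrillin-1, rose by 1.06 ± 0.28, 2.07 ± 0.28 and 0.90 ± 0.28 in the same order (adjusted p = 0.0195, 2.77e-05 and 0.0219, limma). Fbln2 rose by 1.72 ± 0.28 in untreated and 1.86 ± 0.28 in treated dKO females (adjusted p = 0.000369 and 7.15e-05, limma), and its 0.61 in treated males was not called (95% interval 0.03 to 1.18). Eln, encoding elastin, rose by 1.20 ± 0.22 in treated dKO females and 0.75 ± 0.22 in treated dKO males (adjusted p = 0.000492 and 0.0151, limma). Fbln1 was called in no genotype comparison, at 1.55, 0.72 and 1.22 (adjusted p = 0.0724, 0.338 and 0.101, limma), and treated WT males ranged from -3.42 to -0.24 in it, the widest spread of the list in that group (SD 1.36).

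Small leucine-rich proteoglycans bind collagen fibrils and regulate their width, and matrix glycoproteins link fibrils to cells. Of the 9 members in these roles, 1 rose and 1 fell in untreated dKO females, 7 rose and 1 fell in treated dKO females, and 5 rose and 2 fell in treated dKO males. Lum (lumican) and Dcn (decorin) lie next to each other on chromosome 10, with probes 54.9 kb apart. Lum (probe at chr10:97035210-97035269, mm9, plus strand) had 4.18, 3.86, 3.98 and 3.95 in treated dKO females, against 1.39, 1.96, 2.12 and 1.84 in treated WT females. Treated males had 4.18, 3.78, 4.25 and 4.01 in dKO, against 1.48, 2.20, 0.81 and 1.62 in WT. The 8 treated dKO arrays were close together and far from all WT arrays. Lum rose by 0.69 ± 0.21 in females without treatment, 2.17 ± 0.21 in treated females and 2.53 ± 0.21 in treated males (adjusted p = 0.0422, 7.64e-07 and 5.4e-08, limma). Dcn rose by 1.23 ± 0.17 in treated dKO males (adjusted p = 2.68e-05, limma). In treated females its difference was 0.49 ± 0.17, with overlapping groups (adjusted p = 0.0372, limma). A second, dim Dcn probe, above background on 5 arrays, gave -0.13 there, and the call was lost when single arrays were left out. Bgn (biglycan) rose by 1.51 ± 0.25 in treated females and 1.80 ± 0.25 in treated males (adjusted p = 0.000227 and 2.78e-05, limma).

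Fn1, encoding fibronectin, which hepatocytes also secrete into plasma, went the other way. Its levels were 4.77, 4.02, 4.76 and 4.38 in treated dKO females, against 5.34, 5.38, 4.75 and 5.07 in treated WT females, with slight overlap. It fell by 0.56 on the log2 scale in untreated dKO females, by 0.65 in treated dKO females and by 0.51 in treated dKO males (adjusted p = 0.0328, 0.00572 and 0.0243, limma). The call in treated females held with each array left out, while those in untreated females and treated males were lost in some omissions. All 3 Fn1 probes were lower in dKO in both female comparisons. Postn, which encodes periostin, fell by 1.07 in treated dKO males (adjusted p = 0.0132, limma) and differed by 0.26 in each female comparison, not called.

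Ctgf, now named Ccn2, encodes connective tissue growth factor (probe at chr10:24318281-24318340, mm9, plus strand), a matricellular protein and a known target of transforming growth factor beta and of YAP. Treated dKO females had 2.28, 2.43, 2.17 and 2.20, against 0.27, 0.31, 0.38 and 0.31 in treated WT females. Treated dKO males had 3.38, 3.78, 3.65 and 3.64, against 2.50, 1.98, 1.67 and 2.10 in treated WT males. In untreated females the levels overlapped, at 0.57, 0.41, 1.16 and 0.66 in dKO and 0.70, 1.09, 0.07 and 0.71 in WT. The spread within each treated dKO group was small and the gap to WT wide. Ctgf rose by 1.95 ± 0.19 in treated females and 1.55 ± 0.19 in treated males (adjusted p = 7.99e-07 and 5.89e-06, limma), with 0.06 in untreated females (95% interval -0.34 to 0.46). Sparc, a collagen-binding glycoprotein, rose by 1.21 ± 0.32 in treated females (adjusted p = 0.00804, limma). Among the thrombospondins, Thbs1, which can activate latent transforming growth factor beta, was above background on 11 of 24 arrays, all 4 treated dKO females and 1 treated WT female among them. Its fitted difference in treated females was 1.42 ± 0.43 (adjusted p = 0.0187, limma), and with normexp background correction it was -0.29 and not called. Thbs2 rose by 1.61 ± 0.33 in treated females and 1.1 ± 0.33 in treated males (adjusted p = 0.00141 and 0.0184, limma), with 3 of the 4 WT male arrays above background.

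**Figure D2:**
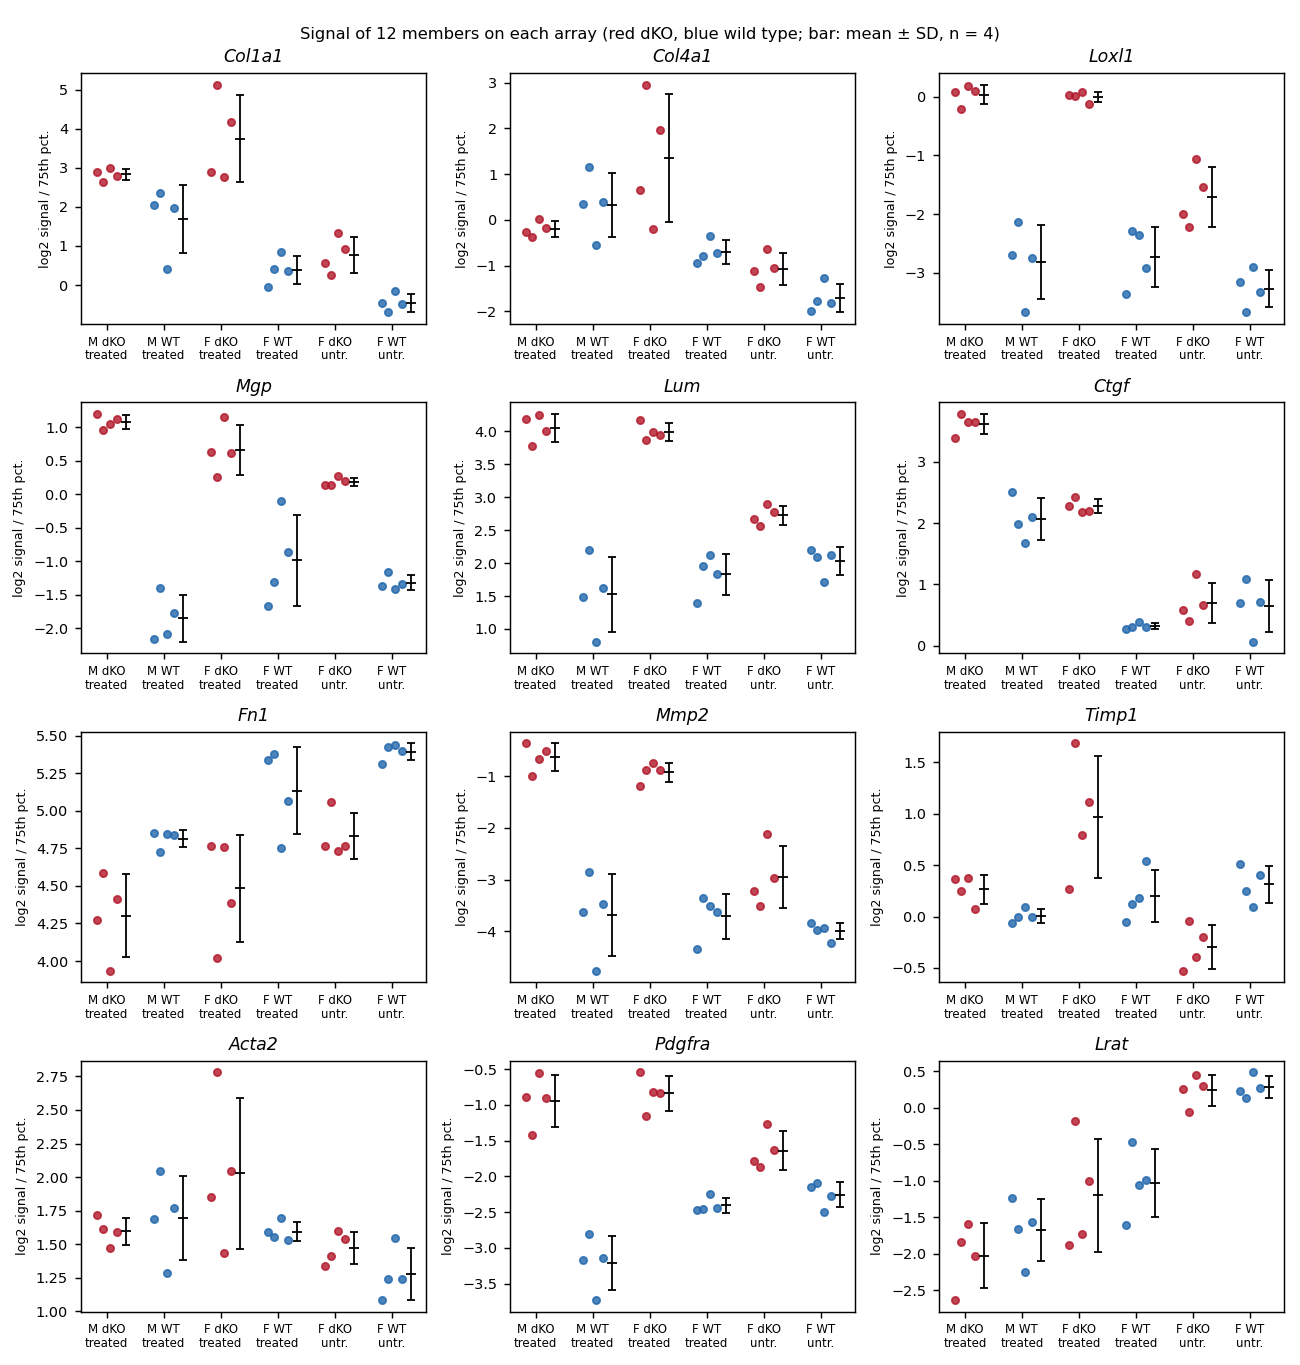
Log2 signal relative to each array's 75th percentile (y axis) for 12 members on every array, by group (x axis: treated males, treated females and untreated females, each dKO left of WT), with the mean and SD of 4 arrays beside the points. Loxl1, Lum and Mmp2 are near one level on the 8 treated dKO arrays, Col1a1 and Col4a1 are spread widely over the treated dKO females, and Lrat is lower in all treated groups than in untreated females of the same genotype.

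Of the 5 proteases and inhibitors, 2 rose in untreated dKO females, 5 in treated dKO females and 4 in treated dKO males. Mmp2, the gelatinase A of stellate cells and fibroblasts (probe at chr8:95376840-95376899, mm9, plus strand), had -1.18, -0.89, -0.75 and -0.88 in treated dKO females, against -4.34, -3.36, -3.52 and -3.64 in treated WT females. Treated males had -0.36, -0.99, -0.67 and -0.50 in dKO, against -3.62, -2.86, -4.77 and -3.47 in WT. Neither pair overlapped, and the gap exceeded the spread of either group. The log2 fold changes were 1.04 ± 0.32 in females without treatment, 2.79 ± 0.32 in treated females and 3.05 ± 0.32 in treated males (adjusted p = 0.0438, 4.64e-06 and 8.87e-07, limma), with 3 of the 4 untreated WT arrays above background. Mmp14, the membrane-bound activator of Mmp2, rose by 1.1 ± 0.15 in treated females and 0.70 ± 0.15 in treated males (adjusted p = 2.44e-05 and 0.00132, limma).

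The inhibitors were not all called in the same comparisons. Timp3, which is bound to matrix, rose by 0.77 ± 0.17, 1.08 ± 0.17 and 1.13 ± 0.17 in untreated, treated female and treated male mice (adjusted p = 0.00636, 0.000144 and 6.56e-05, limma). Timp2, a partner of Mmp14 in activating Mmp2, rose by 1.25 ± 0.23 in treated females and 1.62 ± 0.23 in treated males (adjusted p = 0.00061 and 3.85e-05, limma). Timp1 had -0.53, -0.04, -0.40 and -0.20 in untreated dKO females, against 0.51, 0.25, 0.09 and 0.40 in untreated WT females, all 4 dKO arrays below all 4 WT arrays, with a difference of -0.61 that was not called (adjusted p = 0.0659, limma). In treated females Timp1 was 0.77 ± 0.20 higher in dKO (adjusted p = 0.00827, limma), with overlapping groups, and without the pair of dKO arrays of lowest spike-in slope the difference was 0.33 (adjusted p = 0.244, limma). A second, dimmer Timp1 probe, above background on 14 arrays, gave 0.55 in females without treatment, 3.53 in treated females and 1.22 in treated males, so that the direction in untreated females and the size in treated females depend on the probe.

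Of the 4 contractile and filament genes, 0 were called in untreated females, 2 rose in treated dKO females and 1 in treated dKO males. Acta2, encoding the smooth muscle actin by which myofibroblasts are recognised, had 1.86, 2.78, 1.43 and 2.05 in treated dKO females, against 1.59, 1.55, 1.69 and 1.53 in treated WT females. Treated males had 1.72, 1.61, 1.47 and 1.59 in dKO, against 1.69, 2.05, 1.29 and 1.77 in WT. The groups overlapped, and the differences of 0.44 (95% interval 0.03 to 0.85) and -0.10 (95% interval -0.51 to 0.31) were not called. Its 4 kept probes disagreed: in treated females they gave 0.94, 0.44, -0.56 and 0.86, and in untreated females 1.40, 0.19, -1.05 and 1.1, the value of the brightest probe standing in the second place, so that no direction can be drawn for Acta2. Tagln, which encodes another smooth muscle protein, gave -0.09, -0.32 and -0.44 in the 3 comparisons, none called. A second Tagln probe, above background on all 24 arrays, gave 0.75, 1.35 and 0.56, so that no direction can be drawn for Tagln either. Des (desmin, an intermediate filament of stellate and muscle cells) rose by 0.86 ± 0.25 in treated females and 1.26 ± 0.25 in treated males (adjusted p = 0.015 and 0.000946, limma). Vim (vimentin, the filament of mesenchymal cells) rose by 1.27 ± 0.30 in treated females (adjusted p = 0.00418, limma).

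Of the 5 ligands and receptors, 4 rose in each genotype comparison. Both platelet-derived growth factor receptors were among them every time, though their calls in untreated females were lost in some omissions of 1 array. Pdgfra, carried by portal fibroblasts and other mesenchymal cells, had -0.55, -1.15, -0.82 and -0.83 in treated dKO females, against -2.47, -2.46, -2.25 and -2.44 in treated WT females. Treated males had -0.89, -1.42, -0.55 and -0.91 in dKO, against -3.17, -2.81, -3.73 and -3.13 in WT. All dKO arrays lay above all WT arrays of the same sex, and the gap was wider in males, though the test of that difference between the sexes did not pass (0.70, adjusted p = 0.092, limma). Pdgfra rose by 0.62 ± 0.19, 1.57 ± 0.19 and 2.27 ± 0.19 in untreated, treated female and treated male mice (adjusted p = 0.0472, 9.91e-06 and 6.76e-08, limma). Pdgfrb, the receptor of stellate cells and pericytes, rose by 0.74 ± 0.20, 1.22 ± 0.20 and 1.02 ± 0.20 (adjusted p = 0.0246, 0.00022 and 0.000876, limma).

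Of the 3 transforming growth factor beta ligands, Tgfb2 and Tgfb3 rose in every genotype comparison and Tgfb1 was called in none. Tgfb3 had 0.19, 0.65, 0.40 and 0.29 in treated dKO females, against -2.18, -1.51, -1.31 and -1.90 in treated WT females, with no overlap. It rose by 1.65 ± 0.24, 2.11 ± 0.24 and 2.21 ± 0.24 in untreated, treated female and treated male mice (adjusted p = 0.000125, 4.26e-06 and 1.36e-06, limma). Tgfb2 rose by 1.63 ± 0.35, 2.55 ± 0.35 and 1.09 ± 0.35 (adjusted p = 0.00494, 3.46e-05 and 0.0278, limma). Its groups overlapped in treated males, where the difference without WT replicate 3 was 0.75 (adjusted p = 0.123, limma). Tgfb1, the form usually studied in liver fibrosis, gave 0.47, 0.60 and 0.06 (95% intervals -0.26 to 1.19, -0.12 to 1.33 and -0.66 to 0.79).

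Because Tgfb2 and Timp3 rose in all 3 genotype comparisons, Col1a2 in treated females alone and Acta2 in none, the 250 bases before their transcription starts are shown (RefSeq, GRCm38.p6, read 5′ to 3′ on the gene's strand). They lie at chr1:186705990-186706239 (minus strand), chr10:86300162-86300411 (plus strand), chr6:4505368-4505617 (plus strand) and chr19:34255374-34255623 (minus strand). Capitals mark the forkhead core TGTTTGC or TGTTTAC, the TATA core TATAA and the CCAAT motif, each searched on both strands, so that a match on the other strand appears as its complement (GCAAACA for TGTTTGC).
Tgfb2: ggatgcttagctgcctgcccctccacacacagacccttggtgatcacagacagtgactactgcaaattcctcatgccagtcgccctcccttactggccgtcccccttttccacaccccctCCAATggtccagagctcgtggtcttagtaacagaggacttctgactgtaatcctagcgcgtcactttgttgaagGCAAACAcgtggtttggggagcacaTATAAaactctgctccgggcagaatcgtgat
Timp3: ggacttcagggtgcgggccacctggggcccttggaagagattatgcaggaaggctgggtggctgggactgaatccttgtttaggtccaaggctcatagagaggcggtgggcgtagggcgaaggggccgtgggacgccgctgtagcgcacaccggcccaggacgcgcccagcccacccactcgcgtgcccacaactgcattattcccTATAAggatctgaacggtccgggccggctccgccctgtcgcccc
Col1a2: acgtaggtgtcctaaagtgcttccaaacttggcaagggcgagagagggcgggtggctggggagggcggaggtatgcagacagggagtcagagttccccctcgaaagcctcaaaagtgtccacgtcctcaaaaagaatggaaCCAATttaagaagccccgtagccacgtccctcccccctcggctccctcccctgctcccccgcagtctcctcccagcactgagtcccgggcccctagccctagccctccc
Acta2: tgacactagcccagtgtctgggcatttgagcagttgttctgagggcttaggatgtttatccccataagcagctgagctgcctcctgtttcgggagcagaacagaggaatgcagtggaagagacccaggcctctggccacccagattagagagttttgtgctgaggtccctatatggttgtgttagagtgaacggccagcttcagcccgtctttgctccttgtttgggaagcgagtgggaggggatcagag
Promoters were found for 27 of the 44 members. TGTTTGC was in 1 of the 27 (Tgfb2) and in 4.3% of all 32851 promoters, TGTTTAC in 1 of the 27 (Col6a1) and in 3.17% of all. TATAA was in 7 of the 27 and in 22.8% of all promoters, and CCAAT in 10 of the 27 and in 33.8% of all. These are letters in one window and say nothing of binding, and the members' shares were near those of all promoters.

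Neither marker of quiescent stellate cells was called for genotype. These are Lrat, which esterifies retinol for storage, and Reln, encoding reelin. Lrat differed by -0.17 in treated females (95% interval -0.82 to 0.48) and by -0.35 in treated males (95% interval -1.0 to 0.30), and Reln by -0.03 and 0.49. Among 17 measured markers of stellate and portal mesenchymal cells outside the list, 3 rose in untreated dKO females, 3 rose and 3 fell in treated dKO females and 7 rose in treated dKO males. Of all genes, 5.16% were called higher and 4.59% lower in untreated females. The shares were 13.5% and 16.3% in treated females, and 14.5% and 10.8% in treated males. In treated females the counts of these markers were near the shares of all genes. The mean log2 level of the 17 markers was 0.22 to 0.57 on the arrays of untreated dKO females, against 0.00 to 0.06 in untreated WT females, without overlap. In treated females it was -0.12 to 0.38 in dKO, against 0.02 to 0.16 in WT, with overlap, and in treated males 0.04 to 0.31 in dKO, against -0.75 to 0.00 in WT, without overlap. In treated females the smallest p-values were those of Cygb (1.78 ± 0.23, adjusted p = 1.52e-05, limma), encoding the stellate globin cytoglobin, Ecm1 (-1.22 ± 0.27), Nes (0.96 ± 0.22) and Ednrb (0.62 ± 0.18).

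More members were called with treatment in dKO than in WT females. Of the 44 members, 31 rose and 1 fell in treated over untreated dKO females, where 37.8% of all genes were called, 16.3% higher and 21.5% lower. In WT females 2 rose and 1 fell, against 17.2% of all genes called, 8.47% higher and 8.72% lower. Treated and untreated values did not overlap for 28 members in dKO and 12 in WT females, against 31.4% and 25.6% of all genes. The members' median log2 fold change was 1.01 in dKO and 0.29 in WT females, beside -0.07 and -0.06 over all genes. Those that passed the test in WT females were Sparc (1.20 ± 0.32, adjusted p = 0.0142), Tgfb2 (1.21 ± 0.35, adjusted p = 0.0227) and Lrat (-1.31 ± 0.31, adjusted p = 0.00757, all limma), and the Tgfb2 call was lost without treated WT replicate 3 (0.94, adjusted p = 0.0976, limma) or without untreated WT replicate 3 or 4. Without untreated dKO replicate 2, 26 members were called in dKO females.

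Lrat was the member that fell with treatment in both genotypes. Its levels were -1.88, -0.19, -1.73 and -1.01 in treated dKO females, against 0.25, -0.06, 0.45 and 0.30 in untreated dKO females. In WT females they were -1.61, -0.48, -1.05 and -0.99 when treated, against 0.22, 0.13, 0.48 and 0.27 when untreated. Every treated array was below every untreated array of its genotype, and Lrat fell by 1.44 in dKO females (adjusted p = 0.00156, limma). Treated males were low too, at -2.64, -1.85, -1.60 and -2.04 in dKO and -1.23, -1.66, -2.25 and -1.57 in WT. Among the rises with treatment in dKO females were Col1a1 (2.98 ± 0.43, adjusted p = 6.95e-05), Mmp2 (2.03 ± 0.32, adjusted p = 0.000131), Sparc (1.92 ± 0.32, adjusted p = 0.000212), Ctgf (1.57 ± 0.19, adjusted p = 1.24e-05) and Lum (1.27 ± 0.21, adjusted p = 0.000202, all limma). Lox and Thbs1 were above background on no untreated dKO female array and at least 1.40-fold and at least 1.39-fold higher in the treated ones (adjusted p = 0.00268 and 0.00261, limma). Lox was kept only through the treated dKO females, as given above, so its call is not support for a rise. Fbln2, Mgp, Dcn and Col14a1 were not called with treatment in either genotype, with differences between -0.08 and 0.63. Acta2 passed the test in dKO females (0.56 ± 0.20, adjusted p = 0.0309, limma), but its other probes gave 0.12, 0.25 and -0.60.

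**Figure D3:**
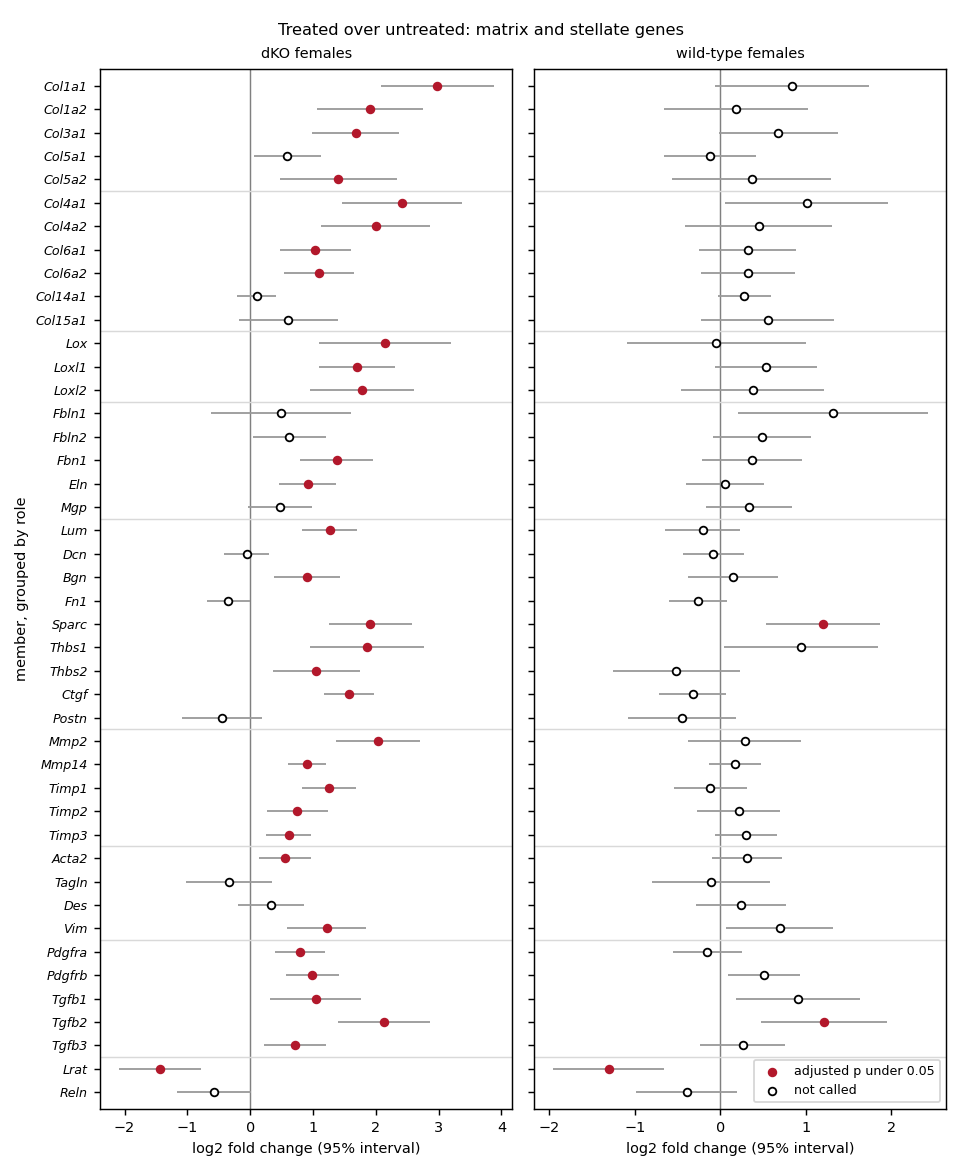
Log2 fold change of treated over untreated females (points, with 95% intervals as lines) for each of the 44 members in dKO and in WT mice; filled points passed an adjusted p of 0.05 (limma). In dKO 31 members are filled right of 0, in WT Sparc and Tgfb2, and Lrat is filled left of 0 in both.

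The difference between these responses was tested as an interaction, the treatment effect in dKO females less that in WT females. It was called for 7 of the 44 members, all positive, against 5.08% of all genes called, 2.47% positive and 2.61% negative, and the members' median was 0.73 beside -0.02 over all genes. The 7 were Col1a1 (2.13), Ctgf (1.89), Mmp2 (1.75), Lum (1.48), Timp1 (1.37), Pdgfra (0.95) and Mmp14 (0.73). Their adjusted p-values were 0.0477, 0.00103, 0.0301, 0.00944, 0.011, 0.0476 and 0.0462 (limma), and Lum, Ctgf and Timp1 kept the call whichever array was left out. The number called was 3 without, for example, treated WT replicate 1, and 14 without treated dKO replicate 3. Without the pair of treated dKO arrays of lowest spike-in slope it was 3 and the median 0.38.

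In treated WT mice the share of members called for sex was near that of all genes. Of the 44, 1 was higher and 2 lower in males than in females, against 6.11% of all genes called, 3.27% higher and 2.85% lower, with a median log2 fold change of 0.09. Ctgf was the higher one, at 2.50, 1.98, 1.67 and 2.10 in WT males against 0.27, 0.31, 0.38 and 0.31 in WT females, a difference of 1.74 ± 0.19 (adjusted p = 1.38e-05, limma). Pdgfra and Mgp were lower in males by -0.81 and -0.87 (adjusted p = 0.0148 and 0.0368, limma), and both calls were lost without male replicate 3, that of Mgp also without 4 other single arrays. The WT male arrays were themselves spread: 33 of 44 members were lowest on replicate 3.

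In treated dKO mice 1 member was higher and 8 were lower in males than in females, against 20.5% of all genes called, 12.4% higher and 8.05% lower, with a median of -0.44. The share of members called in either direction was near that of all genes. The sexes did not overlap for 4 of the 44 members (9.1%), against 19.5% of all genes. Ctgf was again the higher one (1.34 ± 0.19, adjusted p = 0.000114, limma). The lower ones were Col4a1 (-1.55), Col15a1 (-1.34), Lox (fitted value -1.61, above background on 1 male array), Loxl2 (-1.30), Fbn1 (-0.91), Timp1 (-0.70), Pdgfrb (-0.70) and Mmp14 (-0.56). Of these 9 calls, those of Ctgf and Mmp14 held with each array left out. Without female replicate 2 there were 2 calls, without female replicate 3 there were 20, and without the pair of female arrays of lowest spike-in slope there was 1.

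The genotype effect itself was then compared between the sexes, as the difference of dKO over WT in treated males less that in treated females. It was called for 9 of the 44 members, 2 positive and 7 negative, against 12.6% of all genes called, 7.32% positive and 5.25% negative, with a median of -0.41 beside 0.11 over all genes. Col4a1 (-2.58), Lox (fitted value -2.32), Col1a1 (-2.22), Col5a2 (-2.09), Col4a2 (-1.95), Postn (-1.33) and Fbln2 (-1.25) had the smaller or opposite genotype difference in males, and Mgp (1.29) and Dcn (0.74) the larger one. Adjusted p-values were 0.0146, 0.0374, 0.0227, 0.0356, 0.034, 0.0477, 0.0408, 0.0195 and 0.0498 in that order (limma). Col4a1 and Mgp kept the call with each array left out. The number called was 2 without treated dKO female replicate 4, 16 without replicate 3 and 0 without the pair of lowest spike-in slope. Loxl1 (0.12, 95% interval -0.73 to 0.97), Mmp2 (0.26, -0.68 to 1.20), Lum (0.36, -0.25 to 0.98) and Tgfb3 (0.10, -0.60 to 0.81) were not called, and these intervals bound how far the genotype effect could differ between the sexes.

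**Figure D4:**
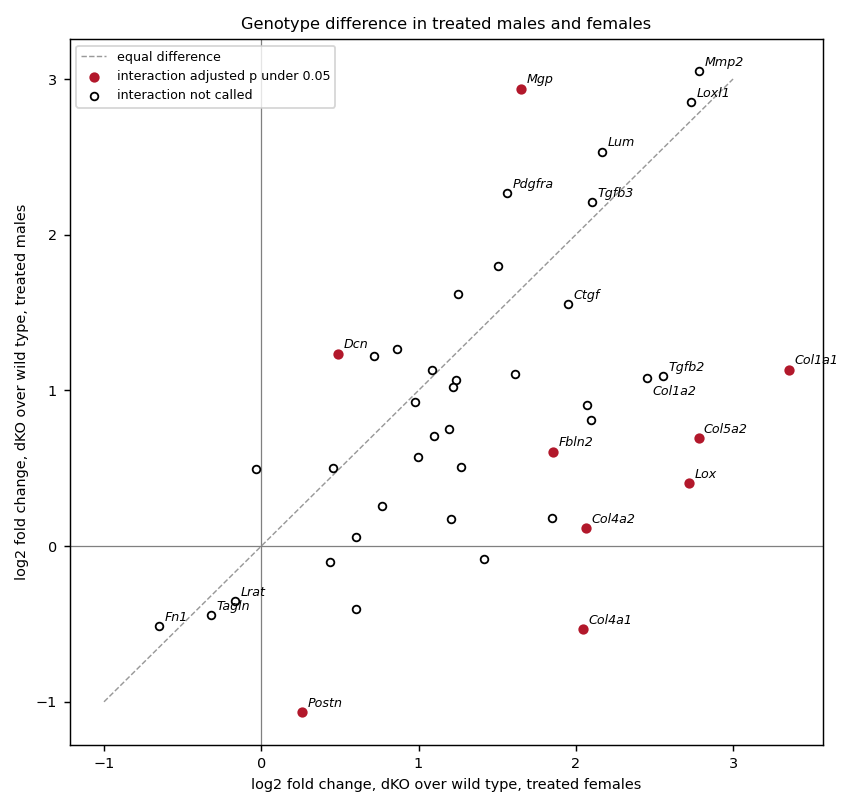
Log2 fold change of dKO over WT in treated males (y axis) against that in treated females (x axis), 1 point per member; filled points passed the test of the difference between the sexes (adjusted p under 0.05, limma) and the dashed line marks equal differences. Mmp2, Loxl1, Lum and Tgfb3 lie near the line at the upper right, while Col1a1, Col5a2, Col4a1 and Col4a2 lie far below it.

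The members fell apart in how evenly they rose over the treated dKO females. The SD over those 4 arrays ran from 0.0692 (Col14a1) to 1.40 (Col4a1), with a median of 0.552, against group medians of 0.208 to 0.520 elsewhere. Of the 35 members that rose in treated dKO females, 15 had an SD over 0.5 and 8 one under 0.2. The even ones were Col6a1, Mmp2, Timp2, Lum, Ctgf, Loxl1, Timp3 and Col14a1. Among the uneven ones were Col4a1, Col4a2, Loxl2, Col1a2, Col1a1, Lox and Col5a2. Replicate 2 was the highest array for 32 of the 44 members, and 26 were higher on both replicates 2 and 4 than on replicates 1 and 3. Treated WT males were similar, with 31 of the 44 highest on their replicate 2. An SD over 0.5 was seen for 23 members in treated dKO females and 23 in treated WT males. The share of all genes with such an order was not examined. Among the treated dKO females, replicates 2 and 4 had the lowest spike-in slopes, and replicate 2 the lowest hepatocyte markers, as given above. The part of these measures in the results was not tested. Without both arrays, 24 of the 44 members were called in treated females, all higher, with a median of 1.07, among them Loxl1 (2.79), Mmp2 (2.74), Col1a1 (2.45), Tgfb2 (2.27), Lum (2.26) and Tgfb3 (2.02).

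**Figure D5:**
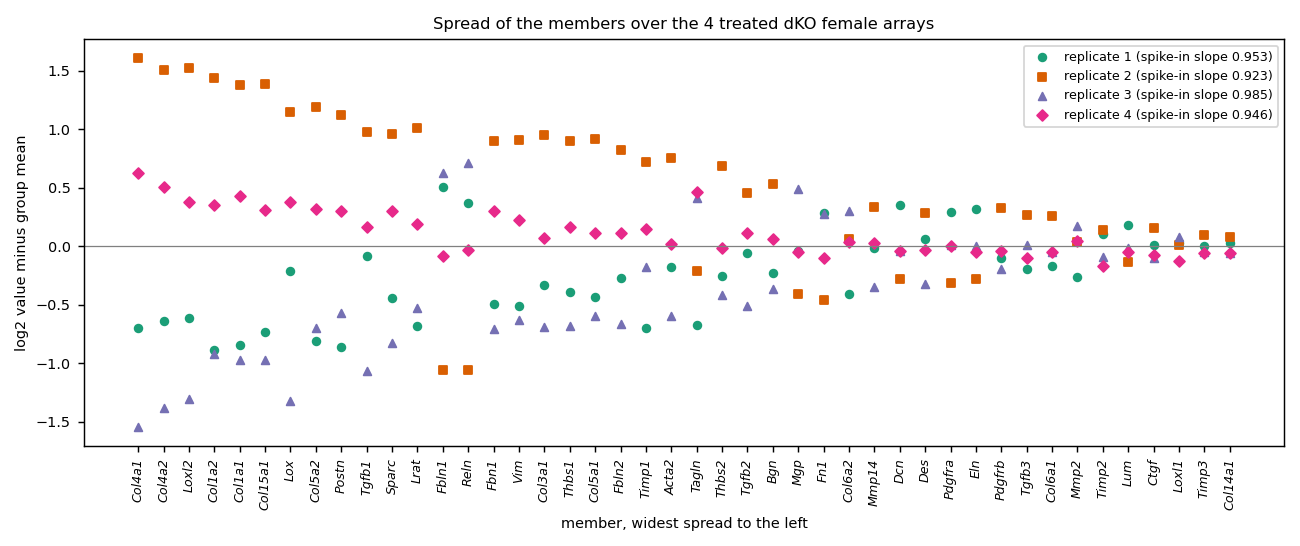
Log2 value on each of the 4 treated dKO female arrays less the group mean (y axis), for the 44 members from the widest spread on the left to the narrowest on the right. Replicate 2 is the top point for 32 members; at the right end Loxl1, Timp3 and Col14a1 are nearly equal on all 4 arrays.

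Markers of other cell types were examined too. For genotype, 13.5% of all genes were called higher and 16.3% lower in treated females, and 14.5% higher and 10.8% lower in treated males. In untreated females the shares were 5.16% and 4.59%. Of 8 bile duct markers, 7 rose in treated dKO females and 8 in treated dKO males, and their mean log2 level over arrays was -0.01 to 0.73 in treated dKO females, against -2.39 to -1.07 in treated WT females. In treated males it was 0.48 to 0.88 in dKO, against -2.76 to -1.52 in WT, with Cftr above background on no array of any WT group. In untreated females it was -1.22 to -0.54 in dKO, against -2.75 to -2.28 in WT. Of 10 macrophage markers 4 rose in treated dKO females and 0 in treated dKO males, with mean levels of 2.64 to 4.14 in treated dKO females, against 3.02 to 3.36 in treated WT females. Mean macrophage levels in untreated females were 2.70 to 3.14 in dKO and 1.28 to 2.28 in WT, without overlap. Of 11 endothelial markers 4 fell in treated dKO females and 2 in treated dKO males, and of 6 mesothelial markers 2 (Wt1 and Lrrn4) rose in each genotype comparison. Wt1 was above background on no array of treated WT males or untreated WT females, so the size of its rise over those groups is not known. Of 8 smooth muscle markers, Des among them, 3 rose and 3 fell in treated dKO females. Of 9 hepatocyte markers 2 fell in treated dKO females (Apoa1 by 1.30 and Cps1 by 1.94 on the log2 scale), and all 9 were above background in every group. The part of these cells in the results was not tested.

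Genes that work with the members were examined through lists chosen by name. Their counts stand beside the same shares of all genes called. Of 19 genes of collagen processing and folding, 10 rose and 3 fell in treated dKO females and 8 rose and 2 fell in treated dKO males, whereas 1 rose and 5 fell in untreated dKO females. In treated females the smallest p-values were those of Pcolce, the enhancer of procollagen cleavage (1.60 ± 0.19), Serpinh1, the collagen chaperone HSP47 (1.70 ± 0.23), Plod2, a lysyl hydroxylase (2.08 ± 0.30), and P3h3, a prolyl hydroxylase (1.58 ± 0.23). Their adjusted p-values were 6.05e-06, 3.28e-05, 6.34e-05 and 6.39e-05 (limma). In untreated dKO females Pcolce rose (0.77 ± 0.19), while Ppib (-0.60), P4ha2 (-0.98) and Plod3 (-0.37) fell.

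Of 23 other genes of transforming growth factor beta signalling, 4 rose in untreated dKO females, 10 rose and 1 fell in treated dKO females and 12 rose in treated dKO males. Ltbp2 and Ltbp3, members of the latent-binding protein family, of which Ltbp3 binds the latent growth factor, had the smallest p-values in treated females. Ltbp2 was 1.89 ± 0.39, 4.07 ± 0.39 and 3.40 ± 0.39 higher in untreated dKO females, treated dKO females and treated dKO males (adjusted p = 0.00382, 7.5e-07 and 3.14e-06, limma). Ltbp3 was 1.19 ± 0.18, 1.79 ± 0.18 and 1.83 ± 0.18 higher (adjusted p = 0.000249, 1.37e-06 and 5.26e-07, limma). In treated females Tgfbr1, a receptor, and Itgav, an integrin chain that activates the latent form, followed at 0.82 ± 0.14 and 0.65 ± 0.11.

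All 4 platelet-derived growth factor ligands rose in treated dKO females, Pdgfb by 2.45 ± 0.35, Pdgfd by 2.19 ± 0.64, Pdgfc by 1.08 ± 0.18 and Pdgfa by 0.65 ± 0.18 (adjusted p = 5.55e-05, 0.0152, 0.000217 and 0.00919, limma). In treated males Pdgfc rose (0.86 ± 0.18) and Pdgfa fell (-0.63 ± 0.18, adjusted p = 0.012, limma). Of 13 laminin and basement membrane genes 9 rose and 1 fell in treated dKO females and 5 rose in treated dKO males, among them in females Lama5 (1.95 ± 0.26), Lamb2 (1.19 ± 0.17) and Nid1 (2.22 ± 0.32). Of 10 matrix receptors 6 rose in treated dKO females and 5 in treated dKO males. Ddr1, a collagen receptor kinase best known from epithelium, was 2.57 ± 0.26 higher in treated dKO females, and Itga11, a collagen-binding integrin chain of fibroblasts, 2.24 ± 0.31 higher (adjusted p = 1.28e-06 and 3.6e-05, limma). Of 14 other matrix proteases and regulators 8 rose and 1 fell in treated dKO females and 3 rose and 2 fell in treated dKO males, with Adamts5 (1.66 ± 0.19), Mmp23 (2.23 ± 0.27), Ctsk (1.90 ± 0.35) and Mmp13 (3.06 ± 0.60, above background on 2 treated WT arrays) first by p-value in females.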

How the data were processed

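RNA of 24 samples in 6 groups was hybridised to single-colour Agilent mouse arrays on 6 slides, after amplification and labelling per the labels' protocols. The deposited files give signal intensity per spot. Agilent Feature Extraction subtracted background and detrended each array, per the file headers, which name version 10.5.1.1, while the submitters' processing notes name 9.53. The authors' deposited table of signed fold changes, a score whose normalization and test are not stated, was used only to compare directions.

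From the processed intensities, log2 values less each array's 75th percentile over non-control spots were computed. Spots marked as outliers were left out, and spots of one probe were averaged. A probe was kept when well above background on 4 or more of the 24 arrays (28048 probes), and the brightest stood for each of 19287 genes. A linear model of 6 group means was fitted over all genes with limma 3.58.1 in R 4.3.3, with Benjamini-Hochberg adjustment within each comparison and a threshold of 0.05. The fit was tested on simulated data. No array contributes sequencing depth, so precision rests on 4 arrays a group.

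The members and all other lists were chosen with earlier results of these data known. Named genes are every member, Foxa1 and Foxa2, and from each other list up to 4 called genes with the smallest adjusted p in the comparison described, except 1 gene that is not reported here. Those lists hold genes of collagen assembly, transforming growth factor beta signalling, platelet-derived growth factor ligands, laminins, matrix receptors and other proteases, and markers of stellate and portal cells, smooth muscle, mesothelium, hepatocytes, bile duct, endothelium, macrophages, T and NK cells, B and plasma cells, neutrophils, adipocytes, erythroid cells and exocrine pancreas.

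Alternatives were averaging all probes of a gene, normexp background correction (offset 50), quantile normalization, no filter and a filter over all 24 arrays, slide as a fixed or random block, replicate number as a block, array position as a covariate, a fit of the compared groups only, and each array left out. Leaving out the pair of treated dKO female arrays of lowest spike-in slope was added after the data were seen. Probe coordinates are those of the files (mm9), promoters are from RefSeq (GRCm38.p6), and exon or UTR positions of the probes were not analysed here.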

Additional observations from a re-analysis of the deposited data

Results flagged for a closer look

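Single arrays far from the other 3 of their group were found in 14 of 264 sets of a member and a group, and chance alone marks about 1 in 20. In untreated dKO females all 3 were replicate 2: Fn1 at 5.06 (others 4.73 to 4.77), Thbs1 at -7.45 (others -6.05 to -5.96, all below background) and Timp2 at 2.80 (others 3.65 to 3.69). Replicate 3 of the treated WT females stood apart for Col14a1 at 1.93 (others 2.31 to 2.38), Pdgfra at -2.25 (others -2.47 to -2.44) and Tgfb2 at -2.35 (others -3.53 to -3.35), and replicate 4 for Lox at -6.82, below background. In treated dKO males replicate 2 was low for Fbln1 at -0.84 and Bgn at 0.17 and high for Postn at -0.79. In the same group replicate 3 was high for Mmp14 at 3.97 (others 3.38 to 3.47) and replicate 1 for Timp2 at 4.80 (others 4.30 to 4.38). The remaining sets were Fn1 in treated WT males, where replicate 2 had 4.73 and the others 4.84 to 4.85, and Col4a2 in untreated WT females, where replicate 3 had -0.83 and the others -1.31 to -1.29.

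The genotype difference in treated mice differed between males and females, by a test of that difference, for 9 members. Male less female, it was -2.58 for Col4a1, -2.32 for Lox (a fitted value, since most of its arrays were below background), -2.22 for Col1a1, -2.09 for Col5a2, -1.95 for Col4a2, -1.33 for Postn and -1.25 for Fbln2, and positive for Mgp at 1.29 and Dcn at 0.74. The treatment effect in females was larger in dKO than in WT for 7 members, by 2.13 for Col1a1, 1.89 for Ctgf, 1.75 for Mmp2, 1.48 for Lum, 1.37 for Timp1, 0.95 for Pdgfra and 0.73 for Mmp14. Each of these tests involves the treated dKO females, whose array measures stood apart, and the part of those measures was not tested.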

How the results depend on the processing

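The counts of called members are 15, 36 and 23 for dKO over WT in untreated females, then treated females, then treated males, 3 and 32 for treatment in WT and dKO females, 3 and 9 for sex in treated WT and dKO mice, 9 for sex by genotype and 7 for genotype by treatment. Leaving out single arrays gave 7 to 19, 33 to 38 and 17 to 26 for genotype, 2 to 3 and 26 to 37 for treatment, 2 to 4 and 2 to 20 for sex, 2 to 16 for sex by genotype and 3 to 14 for genotype by treatment. With array position as a covariate the counts were 6, 0 and 1, then 1 and 2, then 1 and 2, then 0 and 0. Normexp gave 8 in untreated females, 1 for sex in WT and 4 for sex by genotype, and reversed Lox (-0.13) and Thbs1 (-0.29) in treated females. Slide as a fixed block gave 8 in untreated females, 5 for sex in dKO and 4 for sex by genotype. A fit of the compared groups only gave 8 for treatment in WT females, 1 and 2 for sex in WT and dKO, and 0 for sex by genotype. No filter on dim probes gave 3 for each interaction. Without the pair of arrays of lowest spike-in slope, an alternative chosen after seeing the data, 19, 24 and 27 members were called for genotype. The counts were 6 and 20 for treatment, 7 and 1 for sex, 0 for sex by genotype and 3 for genotype by treatment. Comparisons that do not use those arrays kept their log2 fold changes, and their counts moved with the spread estimate that all groups share. The cause of the other moves was not tested. The deviations of same-numbered arrays from their group means, over all genes, correlated between -0.34 and 0.34. These values cannot decide whether the numbers pair samples, and the main fit assumed no pairing. The replicate block gave 11, 35 and 23 for genotype, 3 and 32 for treatment, 3 and 9 for sex, 6 for sex by genotype and 3 for genotype by treatment. Of 137 calls of single members, 125 were lost with position, 46 without the pair of arrays of lowest spike-in slope, 43 with the compared groups only, 35 with normexp besides the 2 reversed, 23 with slide as a fixed block, 17 with no filter, 12 with the replicate block, 6 with the mean of probes, 3 with quantile normalization and 1 with slide as a random block. Single arrays left out ended 245 of 1224 calls. Of the 137, 112 could be fitted over probes above background on all 24 arrays, and 0 of them were lost. Normexp moved the median of all genes in treated females to -0.22, against -0.07. Dim probes (Lox, Thbs1) are limited by signal over background.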

Other observations

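Of all genes, 8.47% were called higher with treatment in WT females and 16.3% in dKO females. In treated WT mice 2.85% were called lower in males than in females. For genotype, 5.16% were called higher and 4.59% lower in untreated females, 13.5% and 16.3% in treated females. In treated males these shares were 14.5% and 10.8%. Of 5 B and plasma cell markers, 4 were higher in treated than in untreated WT females and 4 were lower in WT males than in treated WT females, and 0 were called for genotype in treated mice of either sex (limma). Of 8 T and NK cell markers 2 rose in untreated dKO females, 0 were called in treated females and 1 rose in treated dKO males. Of 10 macrophage markers, 6 were called higher with treatment in WT and 5 in dKO females. Their mean log2 level in WT females was 3.02 to 3.36 when treated, against 1.28 to 2.28 when untreated, without overlap. In dKO females it was 2.64 to 4.14 when treated, against 2.70 to 3.14 when untreated, with overlap.

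The shares of all genes called for genotype, given above, apply to the next counts too. Of 5 adipocyte markers, 2 rose in untreated dKO females, 2 rose and 1 fell in treated dKO females and 1 rose in treated dKO males. Cidea, which encodes a lipid droplet protein of adipocytes also known from fatty liver, rose by 6.57 ± 0.52 in treated dKO females and 4.57 ± 0.52 in treated dKO males (adjusted p = 6.57e-08 and 2.37e-06, limma). It was above background on no untreated WT female array and at least 12.8-fold higher in untreated dKO females (adjusted p = 6.62e-06, limma). Of 4 neutrophil markers 1 fell in treated dKO females and 1 rose in treated dKO males, of 3 erythroid markers 1 (Alas2) fell in treated dKO males, and of 2 exocrine pancreas markers 1 rose and 1 fell in treated dKO females.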
